A study of Mus musculus with 113 samples.

Results

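The genes described here are the 4 members of the Id family (Id1, Id2, Id3 and Id4), the receptor-regulated SMADs Smad1 and Smad5, the inhibitory SMADs Smad6 and Smad7, and the BMP receptor gene Bmpr1a. These 9 genes, of 24006 genes in the expression tables, were read in all 92 libraries with FPKM values (sequenced fragments relative to a transcript's length and to the size of the library). They were chosen on measured values: Id3 had a much lower level after knockdown of Nr5a2 in 8-cell (8C) embryos, and its family and the pathway that commonly controls it were taken with it. The 8C Nr5a2 knockdown against its own control is therefore described below without a test.

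All libraries came from wild-type mouse embryos before implantation, obtained per the study's methods by mating C57BL/6N females with PWK/PhJ males, and were made with Smart-seq2, a full-length cDNA method for very small inputs. Small interfering RNAs (siRNAs) were injected into zygotes, and each siRNA library was a pool of embryos. In the 4KD series, siRNAs against the nuclear receptor genes Nr5a2, Rarg, Nr1h3 and Nr2c2 were injected together at 5 µM per target gene. Their control was a negative control siRNA (NC) at 20 µM, and embryos were taken at the 4-cell (4C) and 8C stages. The methods describe 3 siRNAs for each gene. Below, Nr5a2 siRNA stands for all those against Nr5a2, and likewise for the other genes. In the 3KD series, 3 of these genes were targeted at 5 µM per gene, against NC at 15 µM, and embryos were taken at 8C. Each of 4 groups thus lacked the siRNAs against 1 gene. In the single KD series, 1 gene was targeted at 5 µM and compared with NC at 5 µM at 8C. In the 2-cell (2C) series, Nr5a2 siRNA at 20 µM was compared with NC at 20 µM. These are the doses in the labels, while the methods give 20 µM for NC and no other dose of it. Every siRNA group had 2 libraries, and nothing in the labels says that they came from separate parents or days, so p-values measure the spread between these samples only. For base editing, a cytosine base editor was injected as mRNA (BE), a single guide RNA (sgRNA) that places a stop codon in exon 3 of Nr5a2 was injected alone or with it, each at 100 ng/µl, and each library was 1 embryo. At both 2C and 8C there were 8 embryos with BE alone, 8 with sgRNA alone and 14 with BE + sgRNA. Controls of every series thus carried an injection too, and the edited share of reads was not analysed here.

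ID proteins have a helix-loop-helix domain but no basic DNA-binding region. They pair with E proteins, such as the products of Tcf3, Tcf4 and Tcf12, and keep them off DNA. Bone morphogenetic proteins (BMPs) bind pairs of type I and type II receptors, of which BMPR1A is a type I receptor, and the receptors phosphorylate SMAD1 and SMAD5, which enter the nucleus with SMAD4. Id genes are among the best known direct targets of this pathway, while SMAD6 and SMAD7 are induced by it and restrain it. NR5A2 is an orphan nuclear receptor that binds DNA as a monomer.

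In the mm9 build used for the expression tables, the GENCODE annotation places Id3 on the plus strand at chr4:135699412-135701670, Id1 on the plus strand at chr2:152561987-152563146, Id2 on the minus strand at chr12:25778666-25780957 and Id4 on the plus strand at chr13:48356796-48359405. The values below are for whole genes, with the exons of all transcripts.

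The 250 bases before the annotated start are shown for Id3, on whose level most of the results turn, and for Id2, whose fitted difference had the opposite sign in several of them. They were read from RefSeq's table for the GRCm38.p6 build, at chr4:136143572-136143821 on the plus strand for Id3 and at chr12:25096093-25096342 on the minus strand for Id2, and 7 of the 9 genes had an entry there. Capitals mark TATAA in Id3, which begins 29 bases before the start, and in Id2 the SMAD-associated letters GGCGCC, 231 bases before it, and an E-box (CANNTG), 196 bases before it.
Id3: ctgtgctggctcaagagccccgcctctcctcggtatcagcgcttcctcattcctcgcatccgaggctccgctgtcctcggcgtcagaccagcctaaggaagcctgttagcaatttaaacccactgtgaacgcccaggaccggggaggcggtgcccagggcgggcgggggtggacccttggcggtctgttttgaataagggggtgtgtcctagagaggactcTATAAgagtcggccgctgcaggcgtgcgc
Id2: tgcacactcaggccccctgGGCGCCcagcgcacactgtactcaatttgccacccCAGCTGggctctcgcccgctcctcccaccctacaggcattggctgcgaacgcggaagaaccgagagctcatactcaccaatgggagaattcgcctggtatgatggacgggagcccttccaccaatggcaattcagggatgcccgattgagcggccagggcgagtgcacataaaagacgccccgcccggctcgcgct
Both windows had a GC content of 62.8%. The letters were searched on both strands in 32851 promoter windows of the same length, of which 22.8% held TATAA, 9.59% GGCGCC and 66.2% CANNTG, and none of these words overlapped another in the 2 windows printed. The core element of NR5A receptors, AAGGNCA, was present in 17.5% of all windows and in neither of the 2 printed. Of the 7 genes with an entry, Id4 alone held it, 250 bases before its start. A match is a description of the letters, and its absence concerns these 250 bases only.

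Across the 92 libraries the FPKM sums ran from 83392 to 556462, and between 5472 and 11921 genes reached 1 FPKM. FPKM tables keep no read counts, so the depth is unknown, but the steps between the lowest values gave relative depths of 0.366 to 1.505 times the median library. The lowest sum and fewest genes belonged to 1 embryo, 8C BE + sgRNA replicate 8. The Id3 difference with BE + sgRNA at 8C, and the call of a pathway gene, Gdf9, are also given without it. Ranges, means and correlations include it unless stated otherwise. Against their labels, the columns of 3 single-embryo libraries carry a 4-cell name, namely replicates 13 and 14 of BE + sgRNA at 8C and replicate 8 of sgRNA alone at 2C, and the column of 2C NC replicate 1 is named after another series. The cumulus cell markers (7 genes) summed to at most 13.01 FPKM at 2C and 1.31 FPKM at 8C in single embryos, and 3 sperm markers to at most 40.08 FPKM. Each siRNA target was lower in both knockdown libraries than in both NC libraries of its series, except Rarg in the 3KD series. In pools of embryos, fewer cells of a type and less RNA per cell cannot be told apart.

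Id3 was low at 2C and, per length as FPKM gives it, the highest of the 9 genes at 8C, and the other Id genes ran the other way. Across all libraries the median Id3 level was 17.57 FPKM in 34 libraries at 2C, 65.01 FPKM in 4 at 4C and 363.8 FPKM in 54 at 8C. Id2 went from a median of 37.32 FPKM at 2C to 2.998 FPKM at 8C, and Id1 from 22.05 to 3.015 FPKM. Thus the Id gene with the lowest median among these 3 at 2C was the highest by far at 8C. Id4 had a median of 1.834 FPKM at 2C and of 0 at 8C, where 36 of 54 libraries listed it at 0. Among the pathway components, Bmpr1a (2.741 and 3.934 FPKM) and Smad7 (6.327 and 1.836 FPKM) were detected at 1 FPKM or more in most libraries of both stages. Smad1 had a median of 2.817 FPKM at 2C and 0.2947 FPKM at 8C. Smad5, at 0.5609 and 0.1063 FPKM, and Smad6, at 0.1379 and 0 FPKM, had low medians, and passed the filter of a group mean of 1 FPKM in no comparison of the values as deposited. They reached 2.384 and 4.942 FPKM in single 2C control embryos. Under median-ratio scaling both entered the stage comparison of control embryos, with differences of -0.84 ± 0.18 for Smad5 and -0.64 ± 0.21 for Smad6 (limma, adjusted p = 5.49e-05 and 0.00622).

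The change with stage was tested in the single control embryos, as the mean of BE alone and sgRNA alone at 8C minus the same at 2C. Id3 ranged from 4.865 FPKM through a median of 31.35 to 92.18 FPKM in 2C BE embryos, and from 165.7 through 645.1 to 871.5 FPKM in 8C BE embryos. In sgRNA embryos it ranged from 0 through 17.2 to 67.07 FPKM at 2C and from 56.13 through 342.0 to 798.9 FPKM at 8C. The stages did not overlap within BE, and overlapped slightly within sgRNA. On the log2(FPKM + 1) scale, on which all fold changes here are given, Id3 rose by 4.35 ± 0.50 (SE; limma, adjusted p = 2.0e-11). Of the 7 genes that passed the filter, 2 rose and 5 fell, where 72.5% of 12991 genes were called in this comparison (adjusted p under 0.05). A call of its own therefore sets no gene apart here, and the sizes are what differ: the median over the 7 genes was -1.03 and that over all genes -0.31.

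Id2 had the largest decrease. It ranged from 13.89 through 45.55 to 183.1 FPKM in 2C BE embryos and from 0 through 0.8338 to 14.97 FPKM in 8C BE embryos, and it fell by 3.59 ± 0.45 on the log2 scale over both controls (limma, adjusted p = 2.67e-10). Id1 ranged from 11.22 through 21.51 to 55.23 FPKM at 2C and from 0.4024 through 2.151 to 7.448 FPKM at 8C in BE embryos, without overlap. In sgRNA embryos the stages overlapped, with Id1 from 0 through 10.8 to 70.43 FPKM at 2C and from 0 through 3.492 to 14.85 FPKM at 8C. It fell by 2.08 ± 0.41 (limma, adjusted p = 9.55e-06). Smad1, the transducer of the BMP signal, fell by 1.57 ± 0.22 (limma, adjusted p = 6.71e-09), and Smad7, the feedback inhibitor, by 1.03 ± 0.27 (limma, adjusted p = 0.000565). Id4 fell by 0.99 ± 0.25 (limma, adjusted p = 0.000409) to a level listed at 0 in all 8 of the 8C BE embryos. Bmpr1a rose by 0.65 ± 0.27 (limma, adjusted p = 0.0259), a call that was lost under median-ratio scaling between libraries, at 0.26 and an adjusted p of 0.329, where the median over all genes moved from -0.31 to -0.63. The plot of the 9 genes in control embryos shows each gene at both stages.

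**Figure D1:**
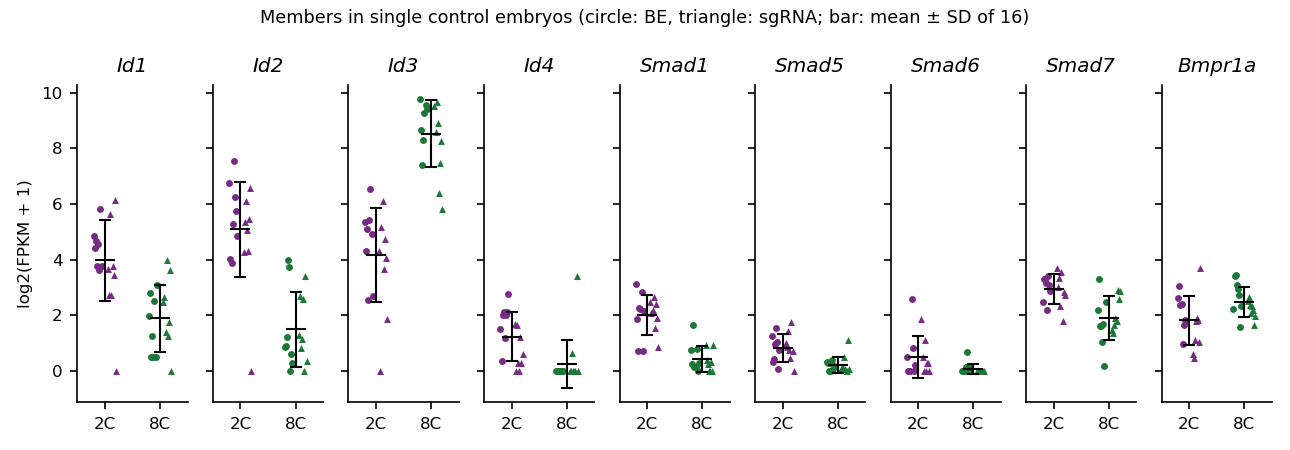
Levels of the 9 genes in single control embryos, as log2(FPKM + 1), at 2C and 8C, with circles for BE alone, triangles for sgRNA alone and bars for the mean ± SD of 16 embryos. Id3 is the only one of the Id genes that is higher at 8C, and the medians of Smad5 and Smad6 are below 1 FPKM at both stages.

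The NC pools of the 4KD series gave the step from 4C to 8C. Id3 was at 286.9 and 54.17 FPKM in the 4C NC libraries and at 767.2 and 813.7 FPKM in the 8C NC libraries, so both 8C pools lay above both 4C pools. The difference of 2.65 ± 0.71 did not pass the adjusted threshold (limma, p = 0.00438, adjusted p = 0.397). With 1 library left out it ran from 1.46, without 4C NC replicate 2, to 3.84. Groups did not overlap for 3 of the 6 members tested (Id3, Id2 and Bmpr1a) and for 35.3% of all genes. None of the 6 members tested was called, beside 0% of 10476 genes, of which 776 were under an unadjusted p of 0.05.

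Ordered by group mean, Id3 ran from 21.99 FPKM in 2C BE + sgRNA embryos to 790.4 FPKM in the 8C NC pools of the 4KD series, over 22 groups. The 5 lowest means were those of the 2C groups, between 21.99 and 33.28 FPKM, and neighbours among them differed by less than their spread. Next came the 8C Nr5a2 KD at 34.46 FPKM, the lowest 8C group, and then the 4C groups at 58.98 FPKM (4KD) and 170.5 FPKM (NC). Of the 15 groups at 8C, the 8C NC pools of the 4KD and single KD series and the 8C BE embryos had the 3 highest means, 790.4, 607.3 and 562.4 FPKM. Levels in different series are set side by side here and were not tested, since each series was made on its own. Id3 was chosen on the 8C Nr5a2 KD and its NC, so the choice favours the ranks of these groups.

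**Figure D2:**
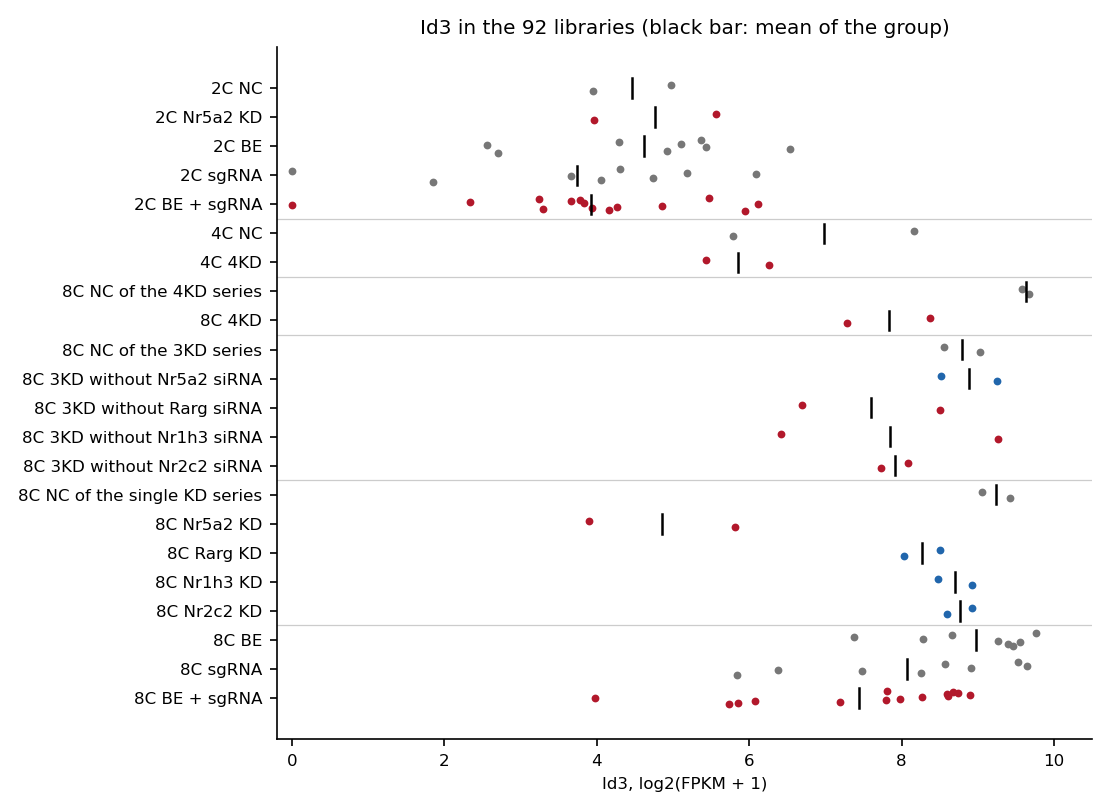
Id3 level as log2(FPKM + 1) in each of the 92 libraries by group, in grey for controls (NC, BE alone, sgRNA alone), in red for groups with Nr5a2 siRNA or BE + sgRNA and in blue for knockdowns without Nr5a2 siRNA. The 2 libraries of the 8C Nr5a2 KD, at 13.91 and 55.01 FPKM, lie in the range of the 2C groups, and Id3 was chosen on them.

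In the single KD series the values that chose the genes were as follows. Id3 was at 531.7 and 682.9 FPKM in the 8C NC libraries and at 13.91 and 55.01 FPKM in the 8C Nr5a2 KD libraries, a fitted difference of -4.38 ± 0.51 (SE, n = 2 and 2). Nr5a2 itself was at 49.54 ± 1.001 FPKM (SD, n = 2) in NC and at 11.21 ± 2.207 FPKM (SD, n = 2) in the knockdown. Both knockdown libraries lay far below both controls for Id3, and replicate 1 was the lower of them. The fitted Id3 difference was -4.09 under median-ratio scaling and -4.19 under quantile normalization. Without replicate 1 of the knockdown it was -3.43 and without replicate 2 it was -5.34. In this comparison 2.75% of 10163 genes were called, groups did not overlap for 46% and the median over all genes was -0.22, which is given for scale only.

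In the same libraries the groups did not overlap for any of the 6 members fitted but Bmpr1a, beside 46% of all genes. Smad7 was at 2.755 and 4.624 FPKM in NC and at 0.2407 and 0.1118 FPKM in the Nr5a2 KD, a difference of -1.97 ± 0.46. Id2 was at 1.163 and 1.629 FPKM in NC and at 5.390 and 29.55 FPKM in the Nr5a2 KD, a difference of 2.55 ± 1.06. Id1 was at 2.07 and 2.363 FPKM in NC and at 1.462 and 1.534 FPKM in the knockdown, a small difference of -0.36 ± 0.94. Smad1 was at 1.383 and 0.3871 FPKM in NC and at 0.2415 and 0 FPKM in the knockdown, a difference of -0.71 ± 0.57. Bmpr1a had a difference of -0.55 ± 0.49, and its groups overlapped. Id4 did not reach the filter, with a highest value of 0.4842 FPKM in the knockdown. The oocyte and maternal markers (Gdf9, Zp3, Mos, Oosp1 and Bmp15) summed to 34.11 and 42.56 FPKM in NC and to 84.69 and 132.4 FPKM in the Nr5a2 KD libraries, with none of the 5 at 0 in both libraries of a group. The 5 markers of the 2-cell burst summed to 2.03 and 2.88 FPKM in NC and to 7.36 and 10.32 FPKM in the knockdown, and the 7 cumulus markers were at 0 in all 4 libraries. The 6 markers of the 8-cell and later stages (Krt8, Krt18, Cdx2, Gata3, Tfap2c and Dppa3) summed to 2661 and 2668 FPKM in NC. In the knockdown they summed to 1253 and 7029 FPKM, which overlapped NC, with Cdx2 at 0 in both libraries. The part of these transcripts in the differences was not tested.

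The other 3 single knockdowns used the same 2 NC libraries, so their differences share those controls. Id3 was at 362.0 and 260.2 FPKM in the Rarg KD, at 357.1 and 483.5 FPKM in the Nr1h3 KD and at 486.5 and 386.2 FPKM in the Nr2c2 KD. All 6 libraries lay below both NC libraries and above both Nr5a2 KD libraries. Id3 was chosen for being high in these NC and low in these Nr5a2 KD libraries, so the choice favours this order. The tests against NC below use the same chosen NC libraries. Groups did not overlap with NC for 31.2% of all genes after Rarg KD, 36.9% after Nr1h3 KD and 40.3% after Nr2c2 KD. The differences from NC were -0.97 ± 0.51 (limma, unadjusted p = 0.0834, adjusted p = 1), -0.54 ± 0.51 (limma, adjusted p = 1) and -0.47 ± 0.51 (limma, adjusted p = 0.930). None of the 6 members tested was called by limma in any of these comparisons, and none had an unadjusted p under 0.05. Of 10163 genes, 0.00984% were called after Rarg KD, 0.00984% after Nr1h3 KD and 0.0787% after Nr2c2 KD. Whether the Nr5a2 KD differs from the other knockdowns in Id3 was not tested, since it chose the genes. Smad7 was at 1.655 and 3.205 FPKM after Rarg KD, at 1.474 and 1.561 FPKM after Nr1h3 KD and at 1.023 and 3.113 FPKM after Nr2c2 KD, above the Nr5a2 KD libraries in all 6.

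The 4KD series held Nr5a2 siRNA with those against the 3 other genes, in separate pools. At 8C, Id3 was at 767.2 and 813.7 FPKM in NC and at 331.1 and 154.8 FPKM in 4KD, so the groups did not overlap. The difference of -1.80 ± 0.71 had an unadjusted p of 0.0311 and an adjusted p of 0.58 (limma), and did not pass. Smad7 was at 3.003 and 1.461 FPKM in NC and at 0 and 0.1359 FPKM in 4KD, again without overlap (-1.56 ± 0.56, limma, unadjusted p = 0.0205, adjusted p = 0.503). Id2 was at 2.298 and 3.511 FPKM in NC and at 10.28 and 8.529 FPKM in 4KD (1.43 ± 0.71, limma, adjusted p = 0.721). The pools thus did not overlap for 3 of the 6 members tested, beside 37.3% of all genes. Id1 (-0.13 ± 0.92), Bmpr1a (-0.32 ± 0.62) and Id4 (0.82 ± 0.58) did not pass either. The 5 markers of the 2-cell burst summed to 12.11 and 12.12 FPKM in these NC pools and to 22.07 and 28.22 FPKM in 4KD. The 6 markers of the 8-cell and later stages summed to 4333 and 4983 FPKM in NC and to 6055 and 7783 FPKM in 4KD, with Cdx2 at 0 in all 4 libraries. The oocyte and maternal markers overlapped, at 41.1 and 63.99 FPKM in NC and at 42.47 and 77.74 FPKM in 4KD. The part of these markers in the differences was not tested. With 0 of 6 members tested called, beside 0% of 10476 genes, 2 members and 784 genes (7.48%) were under an unadjusted p of 0.05.

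At 4C the 4KD pools overlapped for each of the 6 members tested but Bmpr1a, and groups did not overlap for 30% of all genes. Bmpr1a was at 4.382 and 5.725 FPKM in NC and at 1.523 and 2.981 FPKM in 4KD (-0.92 ± 0.62, limma, adjusted p = 0.909). Id3 was at 286.9 and 54.17 FPKM in NC and at 42.11 and 75.85 FPKM in 4KD, with the groups overlapping (-1.13 ± 0.71, limma, adjusted p = 0.909), and without 4C NC replicate 1 the difference was 0.06. Smad7 was at 2.709 and 0.4286 FPKM in NC and at 0.5944 and 0.8265 FPKM in 4KD. None of the 6 members was called by limma, beside 0% of genes, and 0 members and 610 genes were under an unadjusted p of 0.05. The effect at 8C minus that at 4C was -0.67 ± 1.00 for Id3 (limma, adjusted p = 1), and here too 0 of 6 members and 0% of genes were called, with 0 members and 259 genes under an unadjusted p of 0.05. A difference between the stages in the effect of 4KD was thus not detectable with 2 pools per group.

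The 3KD series asked which of the 4 genes can be left untargeted. Id3 was at 375.2 and 523.0 FPKM in NC and at 365.6 and 611.7 FPKM in the group without Nr5a2 siRNA, and the groups overlapped (0.09 ± 0.82, limma, adjusted p = 1). In the 3 groups that held Nr5a2 siRNA it was at 102.1 and 361.4 FPKM (without Rarg siRNA), 84.79 and 615.8 FPKM (without Nr1h3 siRNA) and 270.7 and 211.8 FPKM (without Nr2c2 siRNA). The libraries of the group without Nr1h3 siRNA spanned the whole range of the series. The differences from NC were -1.20 ± 0.82, -0.95 ± 0.82 and -0.88 ± 0.82 (limma, adjusted p = 0.929, 0.922 and 0.927). The first 2 of them moved most with single libraries. Without replicate 1 or 2 of its own group, that without Rarg siRNA was -0.29 or -2.11. For the group without Nr1h3 siRNA it was 0.47 or -2.37. That without Nr2c2 siRNA stayed between -1.12 and -0.65 with 1 library left out. Same-numbered replicates deviated together in this series, so leaving out 1 library also breaks that pairing. With the replicate number as a block, the 3 differences were -1.20 ± 0.56, -0.95 ± 0.56 and -0.88 ± 0.56 (limma, adjusted p = 0.445, 0.527 and 0.546). Against the mean of the 3 groups with Nr5a2 siRNA, the group without it had an Id3 difference of 1.11 ± 0.67 (limma, adjusted p = 0.632), a Smad7 difference of 0.98 ± 0.46 (adjusted p = 0.511) and a Bmpr1a difference of 0.94 ± 0.52 (adjusted p = 0.592), while Nr5a2 itself was higher by 2.50 ± 0.42 (adjusted p = 0.0359). Leaving out 1 library moved the Id3 difference to between 0.63 (without replicate 1 of the group without Nr1h3 siRNA) and 1.58, and that of Smad7 to 0.35 or 1.60 without replicate 1 or 2 of the group without Nr5a2 siRNA. The oocyte and maternal markers summed to 40.22 and 51.29 FPKM in NC, to 24.63 and 59.37 FPKM without Nr5a2 siRNA, and to 86.75 to 185.1 FPKM in the 6 libraries of the 3 groups with Nr5a2 siRNA, with Mos at 0 in both libraries of NC and of the group without Nr1h3 siRNA. The 2-cell burst markers summed to 8.08 and 15.8 FPKM in NC. They overlapped NC without Nr5a2 (3.44 and 21.04 FPKM), Nr1h3 (7.88 and 17.97 FPKM) or Nr2c2 siRNA (6.59 and 14.05 FPKM). Without Rarg siRNA they were at 26.91 and 52.06 FPKM. Sums of the 8-cell and later markers lay within the NC range of 1658 to 9215 FPKM in the other groups. The part of these markers in the differences was not tested.

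None of the 6 members tested was called by limma in the 3KD series. The shares of 10626 genes called were 0% without Nr5a2 siRNA, 0.0565% without Rarg siRNA, 0.00941% without Nr1h3 siRNA, 0% without Nr2c2 siRNA and 0.282% for the group without Nr5a2 siRNA against the mean of the others. At an unadjusted p under 0.05, Id2 in the group without Nr2c2 siRNA was the single member (2.16 ± 0.82, limma, unadjusted p = 0.0233, adjusted p = 0.55), with 251 and 783 genes at that level in the 2 comparisons that called none. Id2 was at 0.2887 and 7.996 FPKM in NC and at 20.89 and 9.508 FPKM in that group. Replicates with the same number deviated together in this series, and with the replicate block the calls over all genes went from 6 to 45, from 1 to 35, from 0 to 65 and from 30 to 262, those without Nr5a2 siRNA stayed at 0, and the count of members called was 0 in each. Under the block the Id3 difference against the mean of the other 3KD groups was 1.11 ± 0.46 (limma, adjusted p = 0.249). There Smad7 was at 0.98 ± 0.42 and Bmpr1a at 0.94 ± 0.43 (limma, adjusted p = 0.264 and 0.302). Blocked, the Id2 difference from NC in the group without Nr2c2 siRNA was 2.16 ± 0.77 (limma, adjusted p = 0.247).

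At 2C, after Nr5a2 siRNA at 20 µM, the groups overlapped for 6 of the 7 members tested. Id3 was at 30.42 and 14.51 FPKM in NC and at 46.29 and 14.53 FPKM in the knockdown, which overlapped (0.30 ± 0.63, limma, adjusted p = 0.955). Id1 (-0.47 ± 0.69) and Id2 (0.23 ± 0.72) had differences below 1 standard error too, and Smad1 was at 1.197 and 1.506 FPKM in NC and at 1.992 and 3.626 FPKM in the knockdown (0.66 ± 0.50, limma, adjusted p = 0.890), which did not overlap, as was so for 35.6% of all genes tested there. Of the 7 members tested 0 were called by limma, 0 were under an unadjusted p of 0.05, and 0.0167% of 11958 genes were called, with 558 under an unadjusted p of 0.05. The doses and the stage differ from those of the 8C series, so the values stand side by side without a comparison. The plot of fitted differences gives Id3, Smad7, Id2, Id1 and Bmpr1a over the siRNA and editing comparisons.

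**Figure D3:**
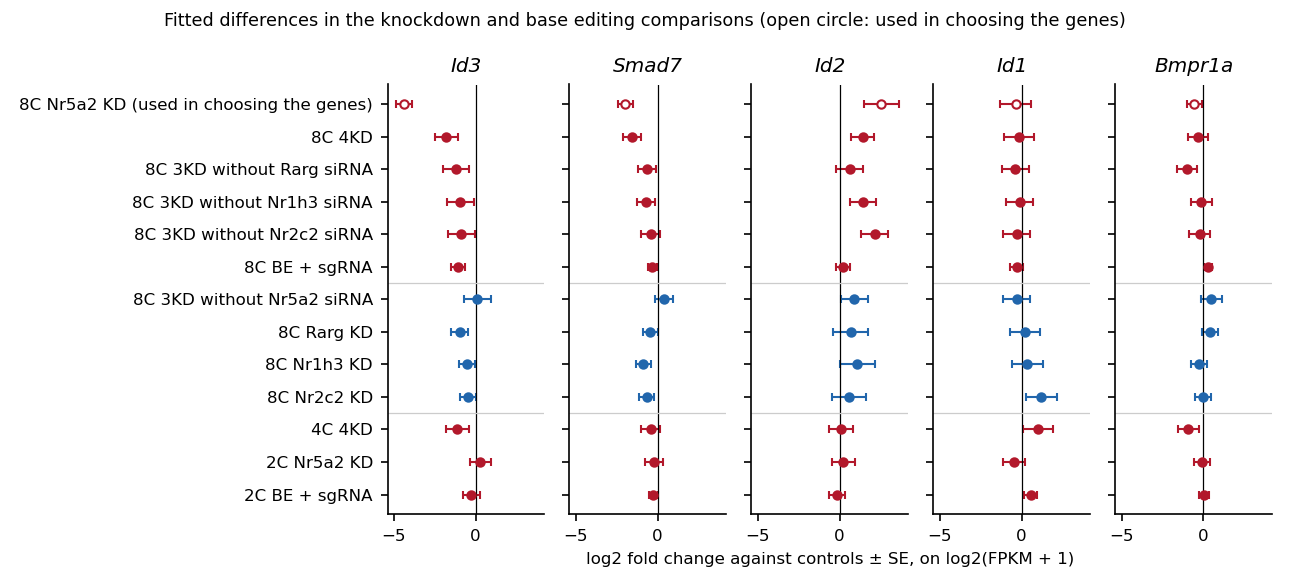
Fitted log2 fold change ± SE of Id3, Smad7, Id2, Id1 and Bmpr1a in the knockdown and base editing comparisons, on the log2(FPKM + 1) scale, with an open circle for the contrast that chose the genes, red for groups with Nr5a2 siRNA or BE + sgRNA and blue for the rest. That contrast was not tested, and none of the other differences shown passed the adjusted threshold.

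Base editing compared 14 embryos per stage with 2 kinds of control embryo. The Nr5a2 transcript was not lower with BE + sgRNA at 8C (0.21 ± 0.25, limma, adjusted p = 0.831), and a stop codon need not lower a transcript, so the level does not check the editing. Id3 ranged from 14.75 through a median of 237.3 to 475.6 FPKM in 8C BE + sgRNA embryos, a mean of 244.7 ± 158.5 FPKM (SD, n = 14). The means were 562.4 ± 243.0 FPKM (SD, n = 8) with BE alone and 377.4 ± 281.4 FPKM (SD, n = 8) with sgRNA alone, and all groups overlapped. The difference from the mean of both controls was -1.08 ± 0.45 (limma, unadjusted p = 0.0212, adjusted p = 0.359), and did not pass. Of the 6 members tested 0 were called, beside 0.164% of 9760 genes, and 1 of them, Id3, was under an unadjusted p of 0.05, beside 10.8% of all genes. The differences of the others were -0.32 ± 0.27 for Smad7, -0.30 ± 0.42 for Id1, 0.20 ± 0.43 for Id2, 0.28 ± 0.26 for Bmpr1a and 0.01 ± 0.24 for Id4.

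The Id3 difference depended on the control and on the run of embryos. The single embryos were divided into an eBE run and a BE4 run by ranges of the serial numbers in the column names. Where the name of a column in these runs gave an editor, it was that of its range. The runs are thus inferred and are not given by the labels. Both eBE and BE4 are names of base editors, while the methods describe 1 editor. A run may therefore also stand for another editor, and run and editor cannot be told apart. Within the eBE run at 8C, Id3 ranged from 616.0 through 689.2 to 753.1 FPKM with BE (n = 4), from 379.3 through 609.8 to 798.9 FPKM with sgRNA (n = 4) and from 222.4 through 400.0 to 475.6 FPKM with BE + sgRNA (n = 6). In this run the BE + sgRNA embryos lay below all BE embryos and overlapped the sgRNA embryos, and the difference was -0.74 ± 0.19 (limma, adjusted p = 0.0968). Within the BE4 run it was -0.88 ± 0.62 (limma, adjusted p = 0.999), with ranges of 165.7 to 871.5 FPKM for BE (n = 4), 56.13 to 304.7 FPKM for sgRNA (n = 4) and 14.75 to 306.6 FPKM for BE + sgRNA (n = 6). With BE alone as control the difference was -1.53, and with sgRNA alone -0.63. It was -0.82 without the embryo of the lowest FPKM sum, -0.81 without the libraries with a 4-cell column name and -0.81 ± 0.34 with the run as a term, so its sign held in each of these.

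Over the 30 single 8C embryos Id3 moved with the FPKM sum of the library. Pearson's r was 0.719 (permutation p = 3e-05, adjusted over 8 correlations 0.00024) and Spearman's rho 0.788 (permutation p = 1e-05, the smallest that 100000 permutations can give, adjusted 8e-05), and r was 0.678 without the 2 embryos farthest from the median sum. The permutations crossed runs and injections, so the p-values also take in differences between these. By run, r was 0.807 in 14 BE4 embryos and 0.248 in 14 eBE embryos, where all sums lay between 427105 and 474480. Without the libraries with a 4-cell column name it was 0.841. Over the 30 embryos at 2C the r of Id3 with the sum was 0.179 (permutation p = 0.34, adjusted 0.46). The 4 sgRNA embryos of the BE4 run at 8C had sums of 207918 to 268257, against 428014 to 466564 in the eBE run. The Id3 difference with BE + sgRNA was -1.07 ± 0.37 under median-ratio scaling and -0.98 ± 0.35 under quantile normalization (limma, adjusted p = 0.230 and 0.240). Beyond these and the within-run values above, the part of the library's FPKM sum in that difference was not tested. The oocyte and maternal markers summed to 29.85 to 256.0 FPKM in 8C BE + sgRNA embryos, 13.79 to 64.08 FPKM in BE and 6.37 to 142.6 FPKM in sgRNA embryos, and their part was not tested.

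**Figure D4:**
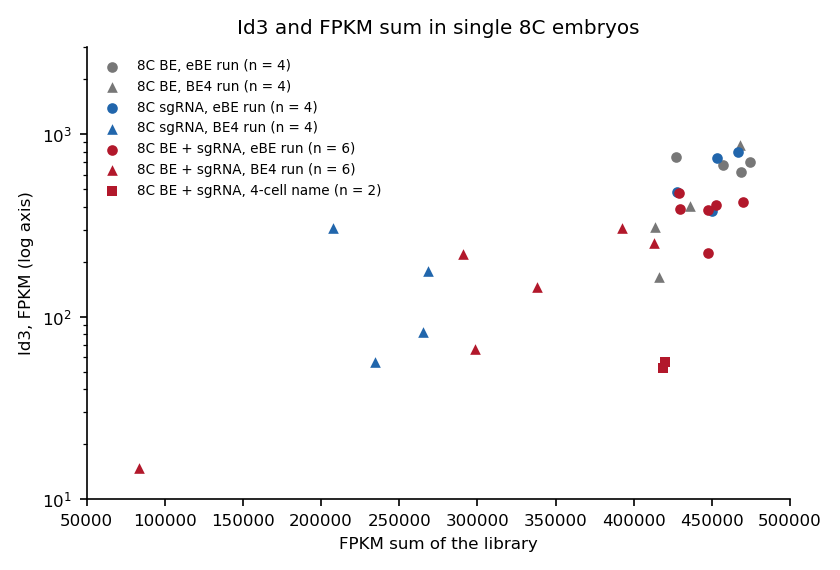
Id3 FPKM (log axis) against the FPKM sum of the library for the 30 single 8C embryos, coloured by injection and with a shape for each run. The lowest sum and the lowest Id3 belong to the same embryo, both embryos with a 4-cell column name have low Id3 at high sums, and the embryos of the eBE run share a narrow range of sums.

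At 2C, no member passed the adjusted threshold with editing. Id3 ranged from 0 through 13.78 to 68.08 FPKM with BE + sgRNA, overlapping both control groups (-0.26 ± 0.55, limma, adjusted p = 0.88). With sgRNA alone as control the difference was 0.18, and over 15 alternatives it ran from -1.35 to 0.24. Within the BE4 run the Id3 median was 35.67 FPKM with BE (n = 4) and 12.16 FPKM with BE + sgRNA (n = 8), in overlapping ranges. That run held no sgRNA embryo at 2C, so the runs are not balanced in this comparison or in that between the stages. Of 7 members tested 0 were called by limma and 0 were under an unadjusted p of 0.05, beside 0.00805% of 12420 genes called. Id1 was at 24.89 ± 11.72 FPKM (SD, n = 14) with BE + sgRNA, 23.32 ± 14.27 FPKM (SD, n = 8) with BE and 20.65 ± 25.12 FPKM (SD, n = 8) with sgRNA (0.56 ± 0.40, limma, adjusted p = 0.588). The editing effect at 8C minus that at 2C was -0.83 ± 0.73 for Id3 (limma, adjusted p = 0.741) and 0.61 ± 0.32 for Smad1 (limma, adjusted p = 0.545), with 0 of 7 members called, 0 under an unadjusted p of 0.05 and 0.0385% of 12991 genes called.

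Genes of the wider pathway were read from 8 lists of 75 genes in all. Between the stages, 49 of them were tested in control embryos, and 9 rose, 30 fell and 10 did not pass, with a median of -1.01 against -0.31 over all genes. Over all 12991 genes 3753 rose and 5668 fell, 72.5% in all, so the lists' share of calls is near that of all genes. Of 9 BMP ligands tested, Gdf3 rose and 7 fell. The largest decrease was that of Bmp15, an oocyte growth factor, which went from a median of 150.1 FPKM in 2C BE embryos to 1.068 FPKM in 8C BE embryos (-6.14 ± 0.38, limma, adjusted p = 1.09e-21). Bmp5 fell by 4.33 ± 0.37 (limma, adjusted p = 5.56e-16). Of 6 receptors, Bmpr1a rose and Bmpr1b and Bmpr2 fell, and of the SMADs of the BMP arm both tested, Smad1 and the shared partner Smad4, fell. Among 6 inhibitory SMADs and ubiquitin ligases, Nedd4l rose and Smad7, Smurf1 and Smurf2 fell, and of 4 antagonists Fstl3 rose and 3 fell. Of 11 BMP-SMAD responsive genes, Id3, Tbx3 and Hand1 rose and Id1, Id2, Id4, Msx1 and Hey1 fell. Of the 3 E proteins, the partners of ID proteins, Tcf3 and Tcf4 fell. In the Nodal and TGF-beta arm, 8 genes were tested, Tdgf1 (the Nodal co-receptor) and Smad2 rose and 6 fell. Tdgf1 rose by 4.90 ± 0.43 (limma, adjusted p = 1.57e-15) from a median of 1.039 FPKM in 2C BE embryos to 103.8 FPKM in 8C BE embryos, while Tgfb2 fell by 4.53 ± 0.37 and Tgfb3 fell by 2.52 ± 0.25 (limma, adjusted p = 1.79e-16 and 2.28e-13). The lists hold Id3 and the other members too.

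In the knockdown and editing comparisons with a test, between 31 and 49 of the listed genes were tested, and 1 passed: Gdf9, an oocyte growth factor, was higher with BE + sgRNA at 8C, at a median of 14.45 FPKM against 3.316 FPKM with BE and 1.589 FPKM with sgRNA (1.84 ± 0.38, limma, adjusted p = 0.0459). It is 1 of 37 listed genes tested there, beside 0.164% of all genes, and is also among the oocyte and maternal markers. Within the eBE run the difference was 2.29 ± 0.33 (limma, adjusted p = 0.0124) and within the BE4 run 0.96 ± 0.53 (adjusted p = 0.999). The call was lost in 12 of 15 alternatives.

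The genes most like Id3 over the means of the 22 groups, on the log2(FPKM + 1) scale and among 9179 genes, were Fbxl20 (Pearson's r = 0.9549), Fgfr2 (0.9522), Vps41 (0.9465), Apoc1 (0.9462) and Pmm1 (0.9461). The points share libraries, stages and depth, and r is a description. Fgfr2, a fibroblast growth factor receptor, was at 10.18 and 16.61 FPKM in the single KD NC libraries and at 2.458 and 3.395 FPKM in the Nr5a2 KD libraries, and Fbxl20, an F-box protein gene, at 45.29 and 83.51 FPKM and at 9.281 and 10.2 FPKM. These values use the contrast that chose Id3.

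Among the 30 single embryos at 2C, the r of Id2 with Id1 and with Id3 passed the adjusted threshold. The first fell without a few embryos, and the second differed between the runs. At 2C, r between Id1 and Id2 was 0.648 (permutation p = 0.001, adjusted over 8 correlations 0.004) and rho 0.404 (permutation p = 0.027, adjusted 0.072). This r was 0.384 without the 2 embryos farthest from the median, and it was 0.383 in 17 eBE embryos and 0.34 in 12 BE4 embryos. Without the library with a 4-cell column name, in which Id1 and Id2 were both at 0, it was 0.35. Between Id2 and Id3 at 2C, r was 0.475 (permutation p = 0.01, adjusted 0.027) and rho 0.606 (permutation p = 0.00047, adjusted 0.0019), with 0.399 without the 2 farthest embryos. By run it was 0.137 in the eBE and 0.675 in the BE4 embryos, and it was 0.424 without the library with a 4-cell column name. At 8C the r between Id1 and Id2 was -0.044 (permutation p = 0.82, adjusted 0.82) and that between Id2 and Id3 -0.092 (permutation p = 0.63, adjusted 0.72). Between Id1 and Id3, r was 0.32 at 2C (permutation p = 0.087, adjusted 0.14) and 0.361 at 8C (permutation p = 0.049, adjusted 0.098). These permutations crossed runs and injections too, so the p-values also take in differences between those. Whether the correlations differ between the stages was not tested.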

How the data were processed

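RNA-seq of 92 libraries in 22 groups was used, of 113 samples listed, and the other 21, of other assays, were not analysed here. Per the study's methods, the authors aligned reads to mm9 with TopHat and computed the deposited FPKM per gene with Cufflinks, and tested counts with edgeR. The submitters' processing notes name TopHat2 2.0.11 and Cufflinks 2.2.1. FPKM are not counts, so limma 3.58.1 (R 4.3.3) was fitted here to log2(FPKM + 1) within each series, with a trended eBayes, two-sided tests, and Benjamini-Hochberg adjustment over all genes with a mean of at least 1 FPKM in at least 1 group of the fit. Genes under an adjusted p of 0.05 were called. The pseudocount shrinks fold changes of low genes. Correlations used 100000 permutations over all single embryos of a stage, across runs and injections (scipy 1.17.1). The fits were tested on simulated data.

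The genes and lists were chosen with earlier results of these data known. Named were all members, the siRNA targets, up to 5 list genes with the smallest adjusted p per comparison, and the 5 genes most like Id3 among those with a group mean of at least 5 FPKM. Lists held pathway genes and markers of oocyte and maternal RNA, the 2-cell burst, the 8-cell and later stages, cumulus cells and sperm. The 6 markers of the 8-cell and later stages summed to 149.1 to 3414 FPKM in single 2C embryos and to 484.0 to 7518 FPKM in single 8C embryos. These ranges overlapped, so the sum does not set the stages apart in each embryo.

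Same-numbered replicates deviated together in the 3KD series, with correlations of 0.278 to 0.513 over 10 pairs of groups. Blocked values of Id3, Id2, Smad7 and Bmpr1a are therefore given there for some comparisons, beside those of the unpaired fit. In the single KD series the correlations were -0.04 to 0.141 and at 2C 0.004. Alternatives were a pseudocount of 0.1, no filter or a filter of 5 FPKM, median-ratio and quantile scaling, no trend, the replicate block, the limits of the study's methods (adjusted p under 0.01 and a log2 change of at least 2), the compared groups alone, each library left out, and for single embryos each control alone, each run, the run as a term, and doubtful libraries left out. A block within each stage of the 4KD series was added after seeing the data.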

Additional observations from a re-analysis of the deposited data

Results flagged for a closer look

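Of 34 groups and genes of single control embryos looked at, 6 held a value whose gap to the nearest other embryo was large for the range of its 8 embryos. The cut-off gives about 1 in 20 for normally distributed values. That rate does not hold for sets with many values at 0. Smad6 was at 0 in 4 of 8 embryos of 2C BE and 5 of 8 of 8C BE, and Id4 in 6 of 8 of 8C sgRNA. At 2C, Smad6 was at 4.94 FPKM in BE replicate 5, with the next embryo at 0.78 FPKM. In 2C sgRNA replicate 8, Id2 was at 0.0 FPKM, with the next at 18.41 FPKM, and Bmpr1a at 12.07 FPKM, with the next at 2.72 FPKM. This embryo is one of those with a 4-cell column name. At 8C, Smad6 was at 0.62 FPKM in BE replicate 5 against 0.11 FPKM, and sgRNA replicate 7 was highest for both Id4 (9.75 FPKM, next 0.56 FPKM) and Smad5 (1.17 FPKM, next 0.42 FPKM). The FPKM tables give no counting error for these values, and none of them is a value of Id3.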

How the results depend on the processing

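The stage difference of Id3 stayed between 3.72 and 4.64 and past the threshold in the 10 alternatives run, and Id1, Id2, Id4, Smad1 and Smad7 kept their direction and an adjusted p under 0.05 in theirs. The limits of the study's methods left 3 members called in place of 7, and the call of Bmpr1a was lost under median-ratio scaling, at 0.26. In every other tested comparison 0 members were called under each alternative run, so only the sign of a difference could move. The Id3 difference turned without some libraries. Leaving out 1 library at a time, it ran from -2.32 to 0.06 for 4KD at 4C (0.06 without 4C NC replicate 1), from -1.86 to 0.52 for the 8C effect minus the 4C effect (0.52 without 4C NC replicate 2), from -0.28 to 0.46 for 3KD without Nr5a2 siRNA, from -2.37 to 0.47 for 3KD without Nr1h3 siRNA and from -0.51 to 1.10 for the 2C Nr5a2 KD. For 3KD without Nr5a2 siRNA it was also -0.09 under median-ratio scaling and -0.06 under quantile normalization. With BE + sgRNA at 2C it ran from -1.35 to 0.24 over 15 alternatives. Against sgRNA alone it was 0.18 and within the eBE run 0.24. For the 8C Nr5a2 KD, without a test, it ran from -5.34 to -3.43 with 1 library left out, that of Id2 from 1.42 to 3.68, and that of Smad7 was -3.77 with a pseudocount of 0.1. In 8C 4KD, Id3 ran from -2.34 to -1.25 and kept its sign. The call of Gdf9 held under median-ratio scaling, without the embryo of the lowest sum and within the eBE run, and was lost in the other 12 alternatives, whose adjusted p reached 0.999.

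The replicate block moved the Id3 difference with BE + sgRNA at 8C to -0.58, where the numbers only name separate embryos, and took the calls over all genes there from 16 to 0, at 2C from 1 to 0, for 8C minus 2C from 5 to 2 and for the Nr2c2 KD from 8 to 1. In the 4KD series same-numbered pools correlated within stages (0.346 and 0.336) and not across them, and a block within each stage called 1 gene at 8C and 1 at 4C, neither a member. The block changed the call of no member. The depth behind an FPKM is unknown, so the precision of low genes such as Smad5 and Smad6 cannot be stated.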
